A study of Danio rerio with 14 samples.

Results

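The 9 genes described here are the metallothionein mt2, the metal-sensing transcription factor mtf1, the zinc exporters slc30a1a, slc30a5 and slc30a7, and the zinc importers slc39a1, slc39a7, slc39a10 and slc39a13. Every probe whose RefSeq accession gave one of these symbols in the gene table was taken, which made 20 of the 43603 probes on the array. Probes without a RefSeq match were not searched by gene name. The probes named mt2 carry the accession of the metallothionein gene and not that of the melatonin receptor for which the same symbol is an old synonym. All 20 probes were well above background on all 14 arrays, so none was lost to the filter on dim probes.

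The arrays came from whole zebrafish larvae of the wild-type AB strain, 5 days old, and 3 groups were compared. Control larvae (4 arrays) were kept in E3, a dilute salt solution for zebrafish embryos, with 0.05% DMSO. Larvae of the 0.5x group (5 arrays) and of the 1x group (5 arrays) were kept in E3 with reconstituted secondary effluent from a treatment plant in Tucson, Arizona, at 0.5 times or 1 times its original strength, and with no more than 0.05% DMSO. Exposure began 3 h after fertilisation and lasted 5 days at 28 °C, with medium renewed every 24 h. Each array holds the pooled RNA of 25 to 30 larvae from 1 well, so the p-values measure the spread between wells. That spread also holds differences of slide and scan day, because the main test did not adjust for them. The labels do not say whether wells shared a clutch. Metal concentrations of the media are not given in the sources used here.

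Metallothioneins are small, cysteine-rich proteins that bind zinc and copper and buffer the free metal in the cytosol. Free zinc activates the transcription factor MTF1, which binds metal response elements in the promoters of metallothionein genes and, in mammals, of the gene for the exporter SLC30A1. SLC30 proteins carry zinc out of the cytosol, across the cell surface or into organelles, and SLC39 proteins carry it into the cytosol. In zebrafish larvae as in other vertebrates, metallothionein mRNA is widely used as a readout of exposure to zinc, copper and cadmium.

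Levels are given as the log2 signal of a probe relative to the 75th percentile of its array, so 0 is the level of that percentile and 1 unit is a 2-fold step in signal. Levels of different probes are not read as amounts of their transcripts, because probes differ in how brightly they report a transcript. Where levels of several probes are subtracted or summed within an array, the result is compared only between groups of arrays. Such a sum is set mostly by its brightest probes. A difference passed the test where limma's p, after Benjamini-Hochberg adjustment over 38803 probes, was below 0.05, and a gene is represented by its brightest probe. The arrays lay on 4 slides scanned on 2 days. Day 1 held control replicates 1 and 2, 1x replicates 1 to 3 and 0.5x replicate 1, and day 2 held the other 8. Control replicates 1 and 2 stood apart from the other arrays on the first principal component (-120 and -80.5, against -17.5 to 44.4 elsewhere), so values within each scan day, without these controls, or both are given beside the main results.

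The clearest change among the 9 genes was in mt2, which fell 2.22-fold in 1x larvae against control larvae and 1.95-fold against 0.5x larvae. The exporter slc30a5 and the importer slc39a1 rose in 1x larvae against control larvae by 1.22-fold and 1.37-fold. Thus 3 of the 9 genes (33.3%) passed in 1x against control, 2 higher and 1 lower, where 26.6% of all 12787 named genes passed, 10.3% higher and 16.2% lower. In 0.5x against control 0 of the 9 passed by limma, with 1 at an unadjusted p below 0.05, where 8.67% of all genes passed, 4.38% higher and 4.29% lower. In 1x against 0.5x 2 of the 9 passed (22.2%), mt2 lower and slc39a1 higher, where 4.32% of all genes passed, 1.67% higher and 2.64% lower. The share of members that passed in 1x against control was thus near that of all genes, and counts this small carry little weight in either direction. The median log2 difference of the 9 genes was 0.13 in 1x against control (all genes -0.05), -0.08 in 0.5x against control (all genes -0.04) and 0.01 in 1x against 0.5x (all genes -0.02).

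Metallothionein mt2 was measured by 3 probes. On the brightest, A_15_P105247, control replicates 1 to 4 had levels of 3.83, 3.66, 4.02 and 4.06, 0.5x replicates 1 to 5 had 3.29, 3.73, 3.75, 3.97 and 3.79, and 1x replicates 1 to 5 had 2.62, 2.82, 2.58, 2.74 and 2.95. All 1x arrays lay below every control and every 0.5x array, while the 0.5x arrays overlapped the controls, with 0.5x replicate 1 the lowest of them. The mean was 2.74 ± 0.15 in 1x larvae and 3.89 ± 0.18 in control larvae (SD, n = 5 and 4), a log2 difference of -1.15 ± 0.14 (SE, adjusted p = 0.000311). Against the 0.5x mean of 3.71 ± 0.25 (SD, n = 5) the 1x mean differed by -0.97 ± 0.13 (adjusted p = 0.00109). In order of level, control and 0.5x were neighbours that did not differ beyond their spread: the difference of 0.5x from control was -0.19 ± 0.14 (adjusted p = 0.369, 95% interval -0.48 to 0.11).

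The other mt2 probes gave the same order of the 1x group. On A_15_P631386 the control arrays had 4.07, 3.72, 3.92 and 4.04, the 0.5x arrays 2.86, 3.54, 3.64, 3.99 and 3.57, and the 1x arrays 2.19, 2.27, 2.06, 2.04 and 2.53. The level was 3.30-fold lower in 1x than in control larvae (log2 difference -1.72 ± 0.18, adjusted p = 0.00013) and 2.47-fold lower than in 0.5x larvae (-1.31 ± 0.17, adjusted p = 0.000933). For 0.5x against control the difference was -0.42 ± 0.18 (adjusted p = 0.140), which did not pass although its interval, -0.81 to -0.03, leaves out 0. On A_15_P655431, the dimmest of the 3, the control arrays ran from 2.18 to 2.74, the 0.5x arrays from 1.89 to 2.46 and the 1x arrays from 1.18 to 1.63. The 1x difference was -1.13 ± 0.16 against control (adjusted p = 0.000689) and -0.96 ± 0.15 against 0.5x (adjusted p = 0.00267). The 3 probes moved together over the 14 arrays, with pairwise correlations of 0.965 to 0.988. In RNA from whole larvae, fewer cells of a type that express a gene and less of its RNA per cell cannot be told apart.

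The fall of mt2 in 1x larvae against control was as large within each scan day: -1.07 on day 1 (3 against 2 arrays, adjusted p = 0.00409) and -1.20 on day 2 (2 against 2 arrays, adjusted p = 0.0062). Without control replicates 1 and 2 it was -1.30 (adjusted p = 0.00159). Against 0.5x, the difference was -0.61 on day 1, where a single 0.5x array was present and the adjusted p was 0.376, and -0.97 on day 2 (adjusted p = 0.00787). That single array, 0.5x replicate 1, also set the day 1 value of 0.5x against control, which was -0.46 (adjusted p = 0.0875) against -0.23 on day 2 (adjusted p = 0.367).

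A second metallothionein gene, mtbl, is on the array with 2 probes. It is not among the 9 genes and was added after the data had been seen, because it codes for the same kind of metal-binding protein. On its brightest probe, A_15_P102493, the control arrays had 4.10, 3.96, 3.78 and 4.11, the 0.5x arrays 3.43, 4.11, 4.29, 4.23 and 4.27, and the 1x arrays 3.55, 3.55, 3.52, 4.00 and 4.13. The groups overlapped, and the low values were those of 1x replicates 1 to 3 and 0.5x replicate 1, all scanned on day 1. The 1x difference from control was -0.24 ± 0.19 (adjusted p = 0.346, 95% interval -0.64 to 0.16), with -0.49 on day 1 (adjusted p = 0.0137) and 0.12 on day 2 (adjusted p = 0.636). The other mtbl probe gave -0.27 (adjusted p = 0.280), with -0.53 and 0.10 on days 1 and 2.

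Whether mt2 changed by more than mtbl was tested within arrays, on the difference of their log2 levels. This difference was -0.27, -0.30, 0.24 and -0.05 on the control arrays, -0.14, -0.38, -0.54, -0.26 and -0.48 on the 0.5x arrays, and -0.93, -0.73, -0.94, -1.27 and -1.19 on the 1x arrays. Every 1x array lay below every other array. The mean was -1.01 ± 0.22 in 1x larvae and -0.10 ± 0.25 in control larvae (SD, n = 5 and 4), a change of -0.91 (exact two-sided permutation test, p = 0.00794, the smallest that the 126 regroupings can give, and 0.0119 adjusted over 3 comparisons). Against 0.5x larvae, with -0.36 ± 0.16 (SD, n = 5), the change was -0.65 (exact permutation p = 0.00794, again the smallest possible, adjusted 0.0119). For 0.5x against control it was -0.26 (exact permutation p = 0.0952, adjusted 0.0952), with 0.15 within day 1, where a single 0.5x array was present, and -0.51 within day 2. The 1x change from control was -0.58 within day 1 and -1.32 within day 2. The regroupings took no account of scan day. On the effluent arrays mtbl was lower on day 1 than on day 2, while the controls of the 2 days overlapped. Every 1x array was already lowest in mt2 alone, and mtbl was added after the data had been seen. These permutation p-values thus lend the fall of mt2 no separate weight. How far each probe also binds the transcript of the other metallothionein was not tested.

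**Figure D1:**
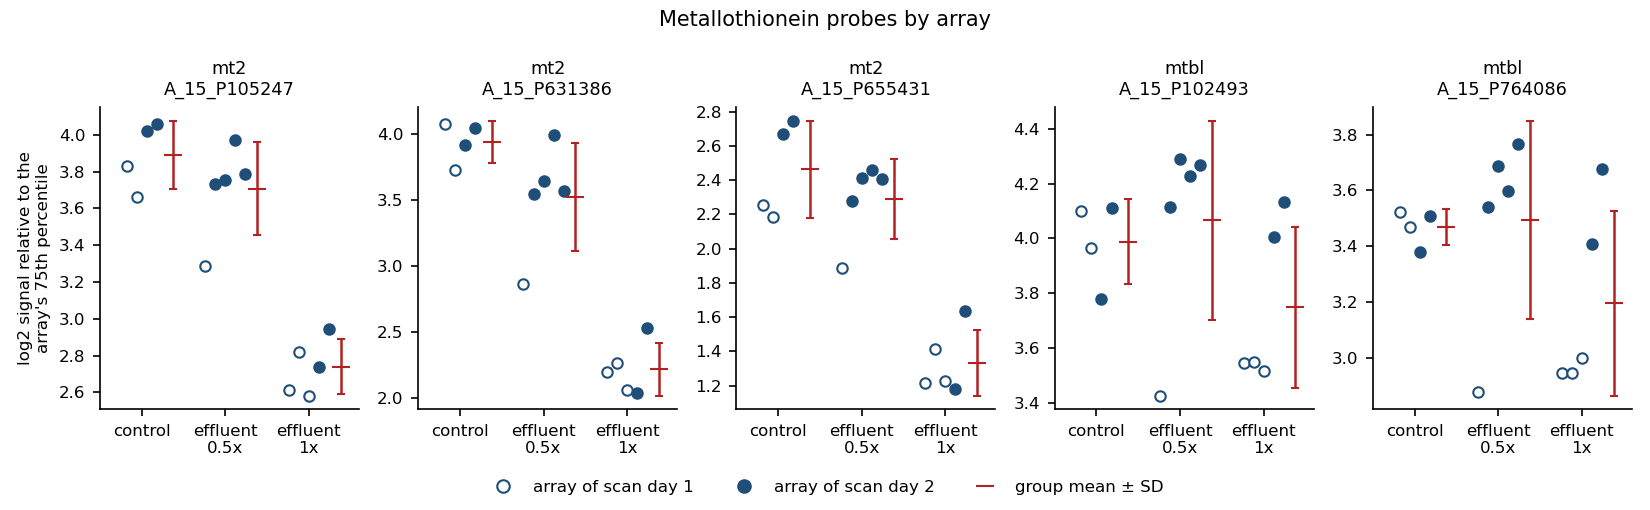
Levels of the 3 mt2 probes and the 2 mtbl probes on each array, as log2 signal relative to the array's 75th percentile, for control, effluent 0.5x and effluent 1x larvae. Points are arrays (open for scan day 1, filled for scan day 2) and bars are the group mean ± SD. On every mt2 probe the 5 effluent 1x arrays lie below the other 9 arrays. On the mtbl probes the groups overlap, and the effluent arrays of scan day 1 are the lowest.

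The transcription factor mtf1, which drives metallothionein genes when zinc is high, did not pass in any comparison. Its brightest probe, A_15_P760521, had levels of 3.02, 3.04, 2.23 and 2.36 on the control arrays, 2.58, 2.36, 2.44, 2.42 and 2.41 on the 0.5x arrays, and 2.40, 2.69, 2.61, 2.32 and 2.24 on the 1x arrays. The high values were those of control replicates 1 and 2, and the controls of day 2 lay within the range of the effluent arrays or just below it. The difference of 1x from control was -0.21 ± 0.17 (adjusted p = 0.354, 95% interval -0.57 to 0.15) and that of 0.5x from control was -0.22 ± 0.17 (adjusted p = 0.379, 95% interval -0.58 to 0.14). Within scan day 1 the 1x difference was -0.47 (adjusted p = 0.0275), while on day 2 it was -0.01 (adjusted p = 0.961). Without control replicates 1 and 2 it was 0.16 (adjusted p = 0.402), so its direction depended on these 2 arrays. The other mtf1 probes gave 1x differences of -0.20 and -0.15 (adjusted p = 0.396 and 0.445).

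Among the exporters, slc30a1a codes for one of the zebrafish counterparts of the mammalian cell-surface exporter SLC30A1, itself a target of MTF1 in mammals. Its single probe, A_15_P210911, had 1.03, 1.26, 1.30 and 1.49 on the control arrays, 1.53, 1.41, 1.64, 1.57 and 1.53 on the 0.5x arrays, and 1.32, 1.52, 1.67, 1.27 and 1.36 on the 1x arrays. The lowest array was control replicate 1, and all 3 groups overlapped. Neither difference from control passed, at 0.16 ± 0.12 for 1x (adjusted p = 0.315, 95% interval -0.09 to 0.40) and 0.26 ± 0.12 for 0.5x (adjusted p = 0.138, 95% interval 0.02 to 0.51). On scan day 2 the 1x difference was -0.08 (adjusted p = 0.734), and on day 1 it was 0.36 (adjusted p = 0.0956).

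The transporter slc30a5 moves zinc into the early secretory pathway, where zinc-dependent enzymes such as alkaline phosphatases take it up. Its only probe, A_15_P284671, had levels of 0.38, 0.33, 0.42, 0.41 and 0.26 on the 1x arrays and 0.11, 0.15, 0.10 and -0.05 on the control arrays. Every 1x array was above every control array. The gene rose by 0.28 ± 0.09 in 1x larvae (adjusted p = 0.0391), a small step beside the other changes that passed. The 0.5x arrays, at 0.26, 0.02, 0.14, 0.09 and -0.09, lay around the controls (difference 0.00 ± 0.09, adjusted p = 0.978), and the 1x difference from 0.5x was 0.28 ± 0.09 (adjusted p = 0.0973). Within the scan days the 1x difference from control was 0.24 and 0.31 (adjusted p = 0.0924 and 0.204). The call did not hold when any 1 of 11 of the 14 arrays was left out: control replicates 1 to 4, 1x replicates 1 to 4 or 0.5x replicates 2 to 4, with adjusted p from 0.0292 to 0.0853 over all 14.

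The Golgi zinc transporter slc30a7 was measured by 3 probes that did not move together. The brightest, A_15_P119612, had 1.43, 1.39, 1.75 and 1.83 on the control arrays, 1.63, 1.71, 1.68, 1.87 and 1.68 on the 0.5x arrays, and 1.62, 1.57, 1.75, 1.81 and 1.90 on the 1x arrays. On this probe the groups overlapped, and the 1x difference from control was 0.13 ± 0.12 (adjusted p = 0.422, 95% interval -0.12 to 0.38). On A_15_P153211 the 1x arrays had -1.28, -1.36, -1.39, -1.56 and -1.91, against -2.26, -1.98, -1.86 and -2.23 on the control arrays, and this probe rose by 0.58 ± 0.16 (adjusted p = 0.0190). On A_15_P494932, the dimmest, the 1x arrays ran from -3.45 to -2.83 and the control arrays from -4.31 to -3.14, a rise of 0.75 ± 0.23 (adjusted p = 0.0268). On both of these probes 1x replicate 5 lay below control replicate 3, and the groups overlapped nowhere else.

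The 2 dim slc30a7 probes had a correlation of 0.918 with each other over the 14 arrays, but of -0.03 and 0.24 with the brightest. Their rise was larger on scan day 1, at 0.78 and 1.14 (adjusted p = 0.00701 and 0.00557), than on day 2, at 0.31 and 0.29 (adjusted p = 0.292 and 0.532); the difference between days was not tested. With the normexp background correction, the 1x difference of A_15_P494932 was 0.16 (adjusted p = 0.265), and with slide as a block it was 0.65 (adjusted p = 0.0504). In 0.5x larvae these 2 probes had differences from control of 0.11 and 0.31 (adjusted p = 0.658 and 0.362), and on both the highest 0.5x array was replicate 1. Which of the probes reports the slc30a7 mRNA best was not tested.

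Among the importers, slc39a1 codes for a zinc carrier of the cell surface. It was measured by 4 probes, all of them dim. On the brightest, A_15_P211196, the control arrays had -2.96, -3.14, -3.04 and -2.87, the 0.5x arrays -2.86, -2.89, -3.46, -3.32 and -2.87, and the 1x arrays -2.78, -2.41, -2.41, -2.43 and -2.71. All 1x arrays lay above all others, while the control and 0.5x arrays overlapped. The gene rose in 1x larvae by 0.45 ± 0.15 against control (adjusted p = 0.0317) and by 0.53 ± 0.14 against 0.5x (adjusted p = 0.0419). For 0.5x against control the difference was -0.08 ± 0.15 (adjusted p = 0.729, 95% interval -0.39 to 0.23).

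A second slc39a1 probe, A_15_P663651, rose by 0.54 ± 0.14 in 1x against control (adjusted p = 0.0144) and by 0.56 ± 0.13 against 0.5x (adjusted p = 0.0301). Probe A_15_P164201 passed in 1x against 0.5x (0.66 ± 0.18, adjusted p = 0.0490) and had 0.33 ± 0.19 against control (adjusted p = 0.188). The dimmest, A_15_P508317, had -0.17 against control (adjusted p = 0.400) and 0.07 against 0.5x (adjusted p = 0.810), and its correlation with the other 3 over the arrays was 0.157 to 0.458. Within the scan days the brightest probe had 0.52 and 0.39 in 1x against control (adjusted p = 0.0396 and 0.327). With the normexp background correction 0 of the 4 probes passed as higher by limma: the brightest had 0.15 against control (adjusted p = 0.321), A_15_P663651 had 0.22 against control (adjusted p = 0.145) and 0.27 against 0.5x (adjusted p = 0.180), and A_15_P164201 had 0.20 against 0.5x (adjusted p = 0.305). Under that correction A_15_P508317 passed as lower against control (-0.32, adjusted p = 0.0334). With slide as a block the brightest probe had 0.41 against control (adjusted p = 0.0534) and 0.47 against 0.5x (adjusted p = 0.183), while A_15_P663651 had 0.50 against control (adjusted p = 0.0148) and 0.51 against 0.5x (adjusted p = 0.0997). The call against control was lost when any 1 of control replicates 1 to 3 or 1x replicates 2 to 4 was left out (adjusted p 0.0247 to 0.0843 over the 14 arrays), and without control replicates 1 and 2 the value was 0.41 (adjusted p = 0.144). The call against 0.5x was lost without any 1 of control replicate 3, 1x replicates 2 to 4 or 0.5x replicates 2 to 5 (adjusted p 0.0224 to 0.122).

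The importer slc39a7 releases zinc from the endoplasmic reticulum into the cytosol. Its brightest probe, A_15_P120873, had levels of 2.26, 2.33, 2.40 and 2.26 on the control arrays, 2.19, 2.24, 2.31, 2.23 and 2.21 on the 0.5x arrays, and 2.55, 2.41, 2.40, 2.72 and 2.64 on the 1x arrays. The 1x arrays lay above all 0.5x arrays and overlapped only control replicate 3. The differences did not pass, at 0.23 ± 0.09 for 1x against control (adjusted p = 0.0766, 95% interval 0.03 to 0.43) and 0.31 ± 0.09 for 1x against 0.5x (adjusted p = 0.0643, 95% interval 0.12 to 0.49). With quantile normalization the first was 0.27 (adjusted p = 0.0290) and with normexp 0.26 (adjusted p = 0.0283), and with slide as a block 0.22 (adjusted p = 0.0495). It passed under only 5 of 28 alternatives, these included, and not under the other 23 (adjusted p from limma 0.00634 to 0.276 over all). On the second probe, A_15_P142526, the 1x arrays had -0.15, 0.01, 0.09, -0.19 and -0.42, against -1.30, -0.65, -0.67 and -1.07 on the control arrays. All 1x arrays lay above all controls, and this probe rose 1.73-fold (0.79 ± 0.19, adjusted p = 0.00972), with 0.96 and 0.56 on days 1 and 2 (adjusted p = 0.0148 and 0.134). Its 0.5x arrays ran from -0.95 to -0.06, and 0.5x differed from control by 0.31 ± 0.19 (adjusted p = 0.271).

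The cell-surface importer slc39a10 was near the low end of detection, with scanner signals of 41.7 to 141 on its probe, A_15_P118323. Its levels were -3.67, -3.58, -3.82 and -4.14 on the control arrays, -3.28, -4.07, -4.68, -4.07 and -3.68 on the 0.5x arrays, and -3.30, -3.55, -3.59, -4.13 and -4.20 on the 1x arrays. The groups overlapped throughout. The 1x difference from control was 0.05 ± 0.25 (adjusted p = 0.902), and its interval, -0.49 to 0.59, does not exclude a change as large as that of slc39a1.

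The importer slc39a13 moves zinc from the Golgi and vesicles into the cytosol and is needed in humans and mice for normal connective tissue. Its brightest probe, A_15_P108098, had levels of 0.89, 0.41, 0.99 and 0.79 on the control arrays, 0.43, 1.63, 1.65, 1.36 and 1.53 on the 0.5x arrays, and 0.58, 0.30, -0.06, 0.96 and 1.11 on the 1x arrays. Of the 0.5x arrays, replicates 2 to 5 lay above every control and every 1x array, and replicate 1 lay among the low ones. No comparison passed: the difference was 0.55 ± 0.27 for 0.5x against control (adjusted p = 0.181, 95% interval -0.03 to 1.12), -0.20 ± 0.27 for 1x against control (adjusted p = 0.605) and -0.74 ± 0.25 for 1x against 0.5x (adjusted p = 0.113).

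Leaving out 0.5x replicate 1 made the slc39a13 difference of 1x from 0.5x -0.96 (adjusted p = 0.0153), and within scan day 2, which lacks that array, 0.5x exceeded control by 0.65 (adjusted p = 0.0374). With the normexp background correction the 1x difference from 0.5x also passed (-0.78, adjusted p = 0.0345). Without 0.5x replicate 1 every 0.5x array was of scan day 2, whereas 1x replicates 1 to 3 were of day 1. On the brightest probe these 1x arrays (0.58, 0.30 and -0.06) lay below those of day 2 (0.96 and 1.11). Scan day thus enters the 1x difference from 0.5x, and its part was not tested. Over 28 alternatives this difference ran from -0.965 to -0.154. The second probe, A_15_P628641, had 0.48 for 0.5x against control (adjusted p = 0.174) and -0.74 for 1x against 0.5x (adjusted p = 0.0748). The mean of the 0.5x group was the highest on both slc39a13 probes. On the brightest probes of mt2, slc30a5, slc39a1 and slc39a7 it lay closer to the control mean than the 1x mean did.

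**Figure D2:**
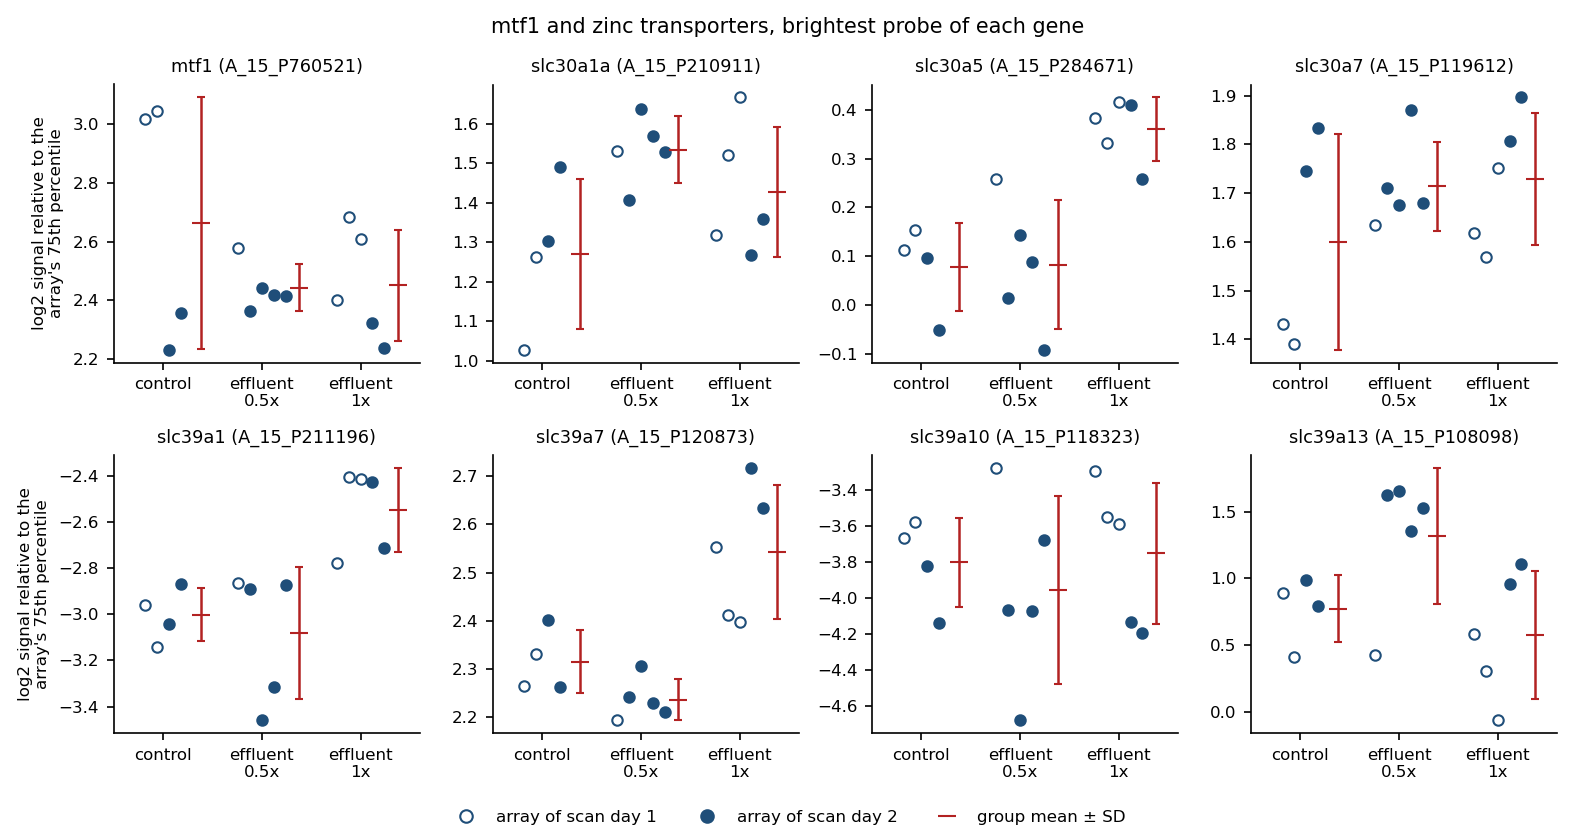
Levels of mtf1 and the 7 transporters on each array, brightest probe of each gene, as log2 signal relative to the array's 75th percentile, for control, effluent 0.5x and effluent 1x larvae. Points are arrays (open for scan day 1, filled for scan day 2) and bars are the group mean ± SD. For slc30a5 and slc39a1 the 5 effluent 1x arrays lie above the 4 controls. For mtf1 and slc30a7 the controls of the 2 scan days lie apart.

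Counted by probe, 9 of the 20 (45.0%) passed in 1x against control, where 28.7% of all probes passed, 9.88% higher and 18.8% lower. The 6 that rose were 2 of slc39a1, 2 of slc30a7 and 1 each of slc30a5 and slc39a7, and the 3 that fell were those of mt2. In 1x against 0.5x, 6 of the 20 passed (30.0%), the 3 mt2 probes lower and 3 of the 4 slc39a1 probes higher, where 4.07% of all probes passed, 1.74% higher and 2.34% lower. In 0.5x against control 0 of the 20 passed by limma and 3 had an unadjusted p below 0.05, where 9.25% of all probes passed, 3.54% higher and 5.72% lower. Probes assigned to 1 gene are not independent, although those of slc30a7 and slc39a1 did not all move together. The comparisons share groups of arrays, so that a gene's values in them are not independent either.

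**Figure D3:**
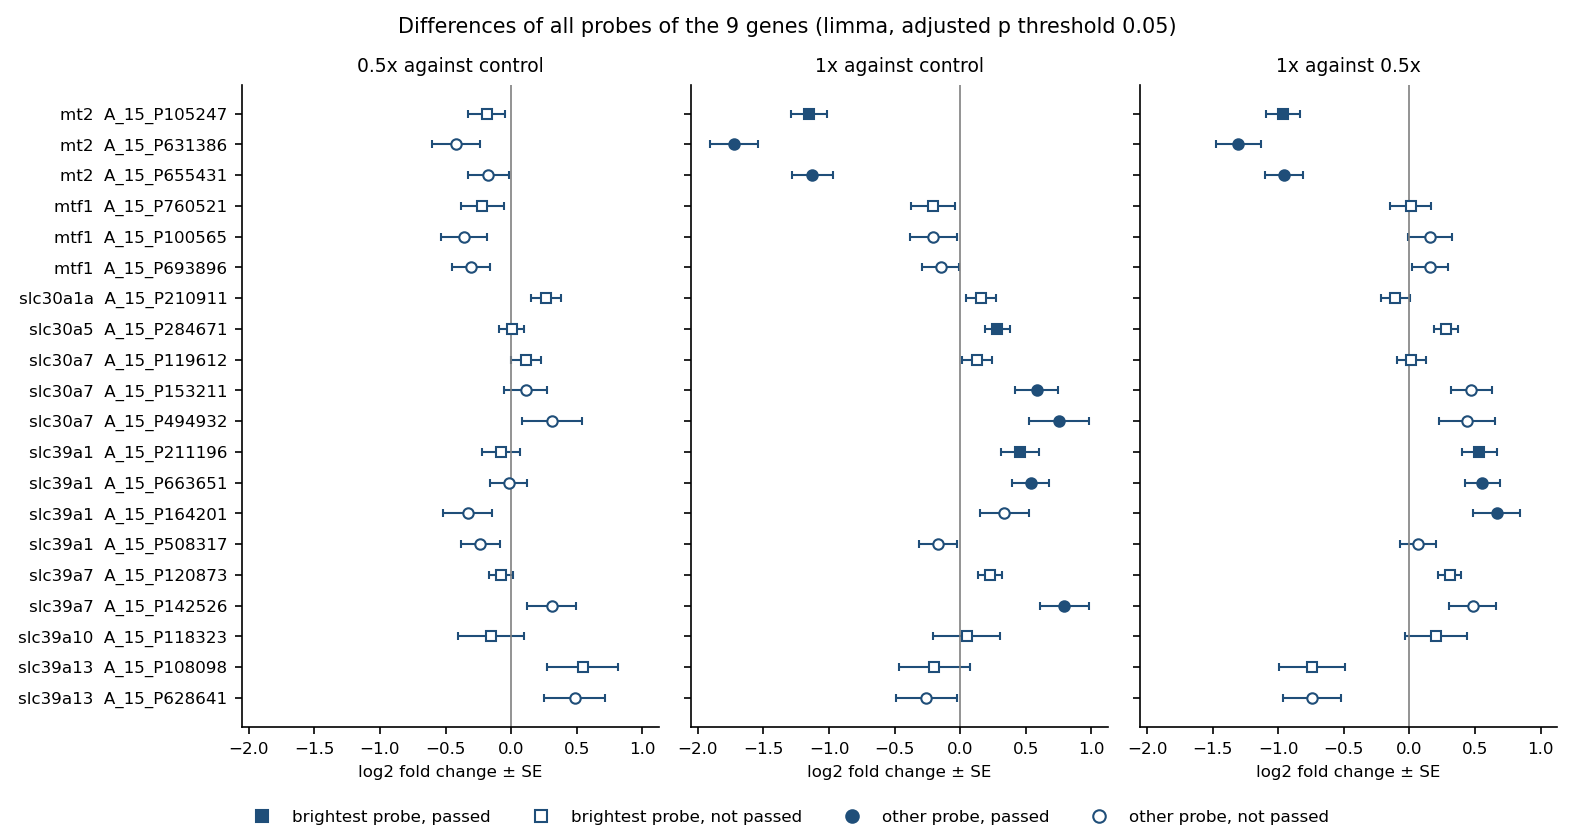
Log2 difference ± SE of all 20 probes of the 9 genes for 0.5x less control, 1x less control and 1x less 0.5x, from left to right. Squares are the brightest probe of a gene and circles its other probes, and filled symbols passed an adjusted p of 0.05 in limma. In 1x against control the 3 mt2 probes lie lowest, at -1.72 to -1.13, and the 6 probes that rose lie between 0.28 and 0.79; no probe is filled in 0.5x against control.

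On the brightest probes of mt2 and slc30a5 the 1x difference from control had nearly the same size on both scan days. For mtf1, slc30a1a and the 2 dim slc30a7 probes the day 1 value was farther from 0, and slc30a1a, slc39a10 and slc39a13 had opposite signs on the 2 days on their brightest probes. Each within-day value rests on 2 control arrays, and the difference between days was not tested.

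**Figure D4:**
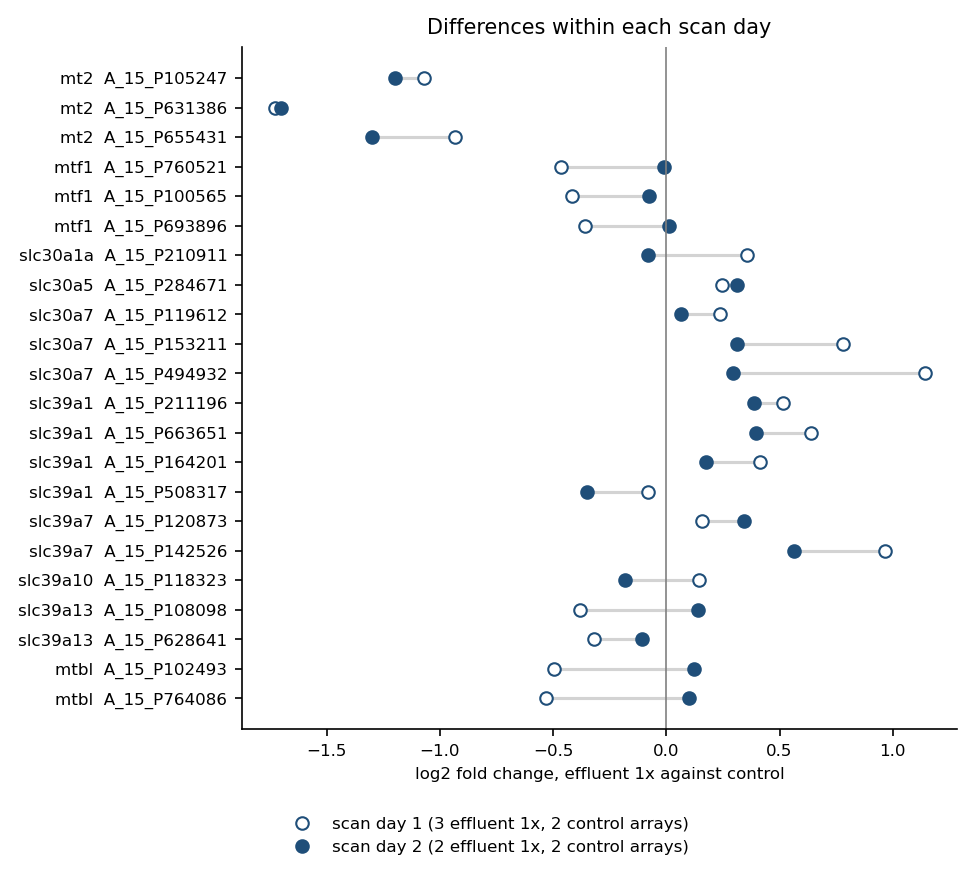
Log2 difference of effluent 1x from control within scan day 1 (open, 3 against 2 arrays) and within scan day 2 (filled, 2 against 2 arrays) for the 20 probes of the 9 genes and the 2 probes of mtbl. The mt2 probes lie at -1.73 to -0.93 on day 1 and -1.70 to -1.20 on day 2, while the mtbl probes lie at -0.53 and -0.49 on day 1 and at 0.10 and 0.12 on day 2.

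Of 18 further zinc transporter genes, 10 had a named probe that passed the filter on dim probes. In 1x against control 2 of the 10 rose, 2 fell and 6 did not pass, with a median log2 difference of -0.01. Of all genes, 10.3% passed as higher and 16.2% as lower in that comparison. In 0.5x against control 8.67% of all genes passed, and in 1x against 0.5x 4.32%. The same shares stand beside the copper genes and MTF1 targets below. The importer slc39a9, which sits in the Golgi, rose on its brightest probe by 0.55 ± 0.09 (adjusted p = 0.00177), by 0.57 and 0.54 within days 1 and 2. It was the only gene of this list that passed in 0.5x against control (0.39 ± 0.09, adjusted p = 0.0217). Its other probe passed in neither comparison, at 0.22 for 1x and 0.17 for 0.5x (adjusted p = 0.113 and 0.264). The exporter slc30a1b, the second zebrafish copy of the cell-surface exporter, rose by 0.73 ± 0.22 (adjusted p = 0.0243). Its only probe was near the low end of detection, with scanner signals of 10.01 to 43.19. It was above background on 12 arrays and not on all, and the 1x and control arrays overlapped. The vesicular exporter slc30a4 fell by 0.67 ± 0.17 (adjusted p = 0.0116), by 1.00 within day 1 and by 0.33 within day 2. The zinc efflux protein tmem163a fell by 0.69 ± 0.21 (adjusted p = 0.0285). Its only probe was also dim, with scanner signals of 37.56 to 69.36, and the 1x and control arrays overlapped. The mean signal of this probe was 47.22 in 1x and 51.14 in control larvae, so the signal itself differed little. Signals are not scaled for the brightness of an array, which was higher in 1x larvae. The 75th percentile ran from 971.7 to 1351 on 1x arrays and from 642.9 to 963.3 on control arrays. This holds for every probe: on the brightest mt2 probe the mean signal was 8051 in 1x and 12410 in control larvae. None of the 10 passed in 1x against 0.5x.

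Copper, the other metal that metallothionein buffers, has its own chaperones and carriers, and 12 of the 14 listed had a named probe. In 1x against control 1 rose, 2 fell and 9 did not pass, with a median of -0.09, and none passed in the other comparisons. The assembly factor cox11, which delivers copper to cytochrome c oxidase, rose on its brightest probe by 0.37 ± 0.10 (adjusted p = 0.0129). Its other probe had 0.19 and did not pass (adjusted p = 0.289). The fall of commd1, which promotes copper excretion in mammals, was 0.74 ± 0.24 (adjusted p = 0.0313), on 1 of 4 probes, and it was 1.18 within day 1 and 0.33 within day 2. The chaperone ccs, which loads copper onto superoxide dismutase sod1, fell by 0.44 ± 0.16 (adjusted p = 0.0480). Its only probe was dim, with scanner signals of 43.54 to 58.91, and the 1x and control arrays overlapped. Its mean signal was 50.74 in 1x and 47.28 in control larvae. The fall of ccs was thus in the level relative to the array, and not in the signal itself, which is not scaled for the brighter 1x arrays.

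Other genes that MTF1 drives in mammals were measured for 7 of 7. Of these, 0 rose and 1 fell by limma in 1x against control, with a median of 0.12, and none passed in the other comparisons. The gene that fell was csrp1a, a LIM-domain protein of the cytoskeleton, at -0.31 ± 0.10 (adjusted p = 0.0374) on its brightest probe, but another of its probes rose by 0.90 (adjusted p = 0.0176). A probe other than the brightest passed, where the brightest did not, for slc39a3 among the zinc transporters, for slc31a1 among the copper genes, and for gclc, ndrg1a and slc40a1 among the MTF1 targets. The slc39a3 probe rose by 0.99 and 2 slc31a1 probes by 0.49 and 0.43, whereas those of the MTF1 targets fell, by 0.52 for gclc, 0.42 for ndrg1a, and 0.83 and 0.87 for slc40a1. Without control replicates 1 and 2 the counts in 1x against control were 2 higher and 1 lower of 10 zinc transporters, 0 and 1 of 12 copper genes, and 0 and 0 of 7 MTF1 targets. Far fewer of all probes passed in that setting too, as given in the last paragraph, so these counts are a description.

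The genes whose levels followed mt2 most closely over the 14 arrays, among 12786 genes searched, were pde6ga, a subunit of the photoreceptor phosphodiesterase (Pearson r = 0.970), the nudix hydrolase nudt18 (0.959), the fatty acid elongase elovl8a (0.959), the tripartite-motif gene trim62.1 (0.956) and the lysyl oxidase loxl2a (0.950). These arrays share their groups, slides and scaling, and the values are a description. The 5 genes were picked by their correlation with mt2 on these same arrays. A fall in 1x larvae thus largely followed from the choice, and the p-values below lend it no separate weight. All 5 genes fell in 1x against control, by 1.29 ± 0.16 for pde6ga (adjusted p = 0.000419), 0.74 ± 0.12 for nudt18 (adjusted p = 0.00187), 0.92 ± 0.14 for elovl8a (adjusted p = 0.000981), 0.71 ± 0.15 for trim62.1 (adjusted p = 0.00487) and 1.21 ± 0.23 for loxl2a (adjusted p = 0.00341).

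Counts of cell type markers that passed in 1x against control changed with scan day and with control replicates 1 and 2. So did the counts over all probes, of which 11147 of 38803 passed over all arrays, 18065 within day 1 and 1574 within day 2. Of all genes, 10.3% passed as higher and 16.2% as lower over all arrays. Marker counts within a day are thus to be read beside these totals, which are not split by direction. Those without control replicates 1 and 2 are to be read beside the totals given in the last paragraph. In 1x against control 3 of 9 measured hepatocyte markers rose and 0 fell (median 0.87). Within scan day 1 the counts were 7 and 0 (median 1.80), within day 2 they were 1 and 1 (median -0.05), and without control replicates 1 and 2 they were 1 and 1. Their summed level, in multiples of the array's 75th percentile, ran from 114 to 491 in control, 362 to 451 in 0.5x and 377 to 399 in 1x larvae. Of 10 enterocyte markers 4 rose and 0 fell (median 0.43), with 8 and 0 within day 1 (median 1.04), 0 and 0 by limma within day 2 (median 0.05) and 0 and 1 without control replicates 1 and 2. Their summed level ran from 117 to 307 in control, 326 to 406 in 0.5x and 324 to 386 in 1x larvae.

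Of 9 exocrine pancreas markers 0 passed by limma in 1x against control over all arrays, but 8 rose within day 1 (median 1.79) and 8 fell within day 2 (median -1.14). Without control replicates 1 and 2, 7 of the 9 fell against control (median -0.95) and 5 fell in 1x against 0.5x (median -0.59). The shares of all genes that fell or rose in these settings are not given here, so these counts are a description. Their summed level ran from 130 to 1340 in control, 814 to 1100 in 0.5x and 455 to 745 in 1x larvae. Of 9 markers of skin ionocytes, the cells that take up ions and divalent metals from the water, 3 rose (slc12a10.2, foxi3a and foxi3b) and atp6v1aa fell, with a median of 0.13 (0.41 and 0.06 within days 1 and 2). Without control replicates 1 and 2 the ionocyte counts were 1 and 0, and the summed level ran from 75.2 to 81.0 in control, 77.6 to 84.1 in 0.5x and 65.8 to 81.1 in 1x larvae.

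Of 7 erythroid markers 5 rose and 0 fell (median 0.66, with 1.1 and 0.39 within days 1 and 2), and 4 and 0 did so without control replicates 1 and 2. Their sums were 109 to 294 in control, 251 to 392 in 0.5x and 282 to 350 in 1x larvae. Of 6 neutrophil and macrophage markers mpeg1.1 rose (median 0.17, with 0.66 and -0.36 within days 1 and 2), none passed by limma without control replicates 1 and 2, and the sums were 4.56 to 12.6 in control, 8.74 to 10.8 in 0.5x and 7.54 to 9.95 in 1x larvae. In 0.5x against control 4 of 10 enterocyte markers rose (median 0.60), as did 3 of 7 erythroid (0.60) and 1 of 9 hepatocyte markers (0.92). No other marker passed there, where 4.38% of all genes passed as higher and 4.29% as lower. Without control replicates 1 and 2 none of the markers passed in 0.5x against control. All measured markers of the 6 lists were above background on every array. The part of these cell types in the changes of mt2, slc30a5, slc30a7, slc39a1 and slc39a7 was not tested.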

How the data were processed

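RNA of 14 pools of larvae was labelled with Cy3 and read on 1-colour Agilent arrays. Per the file headers, the authors deposited scanner output of Feature Extraction 10.7.3.1, whose processed signal is a linear intensity already corrected for background and spatial trends. A series matrix that the authors deposited, with log2 values of 36346 probes, was an alternative only, and its making is not stated. It was compared with the values below centred on each slide's median. The correlation was 1 on 3 slides but 0.872 and 0.901 for the arrays of slide 1, which were thus not matched.

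Here the log2 intensity less each array's 75th percentile was used. Spots marked as outliers (73 of all arrays) were left out, and spots of a probe were averaged. Probes well above background (85.4% to 90.9% per array) on at least 4 arrays of a group were kept, 38803 of 43603. Gene symbols came from the files' RefSeq accessions (25978 probes matched) through a GRCz12tu gene table, used for names only; no sequence or coordinate is given. Groups were compared with limma 3.58.1 in R 4.3.3 (lmFit and eBayes, all 14 arrays, no block, Benjamini-Hochberg over kept probes). The fit was tested on simulated data with independent noise and no slide or scan day effect, so that test does not cover such effects. Precision is set by the number of arrays: the median SE of a log2 difference from control was 0.144 per gene. The normexp alternative used the median spot signal in place of the mean, with an offset of 50. Named were all 9 genes with every probe, the genes of each further list that passed in 1x against control (up to 6), genes with disagreeing probes, and the 5 genes most correlated with mt2. The genes and lists were chosen with earlier results of these data known.

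Samples that share a replicate number were not treated as pairs in the main test. The correlations of their deviations from the group means ran from -0.224 to 0.493. They exceeded 0.1 in 2 of 4 pairs for 1x against control, 2 of 4 for 0.5x against control and 3 of 5 for 1x against 0.5x. These values do not settle whether the samples were paired, because some same-numbered arrays also shared a slide.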

Additional observations from a re-analysis of the deposited data

Results flagged for a closer look

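On 5 of the 66 sets of values tested (7.58%), 1 array stood apart from the others of its group by more than Dixon's criterion at the 95% level, which chance meets in about 1 of 20 sets. All flagged sets were of the 0.5x group, and none was of the control or 1x group. Sets from probes of 1 gene are not independent, so the pooled share is no test against chance. In every case the array was 0.5x replicate 1, the only 0.5x array scanned on day 1, so scan day and array cannot be told apart for this group. The slc30a7 probe A_15_P153211 stood at -1.469 on that array, against -2.159 to -2.043 on the other 0.5x arrays. The slc39a1 probe A_15_P164201 stood at -3.854, against -4.648 to -4.42. The brightest slc39a13 probe, A_15_P108098, stood at 0.4265, against 1.358 to 1.654. For mtbl, probe A_15_P102493 stood at 3.428, against 4.115 to 4.288, and probe A_15_P764086 at 2.875, against 3.54 to 3.766. On the first 2 probes this array was the highest of its group and on the other 3 the lowest.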

How the results depend on the processing

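The fall of mt2 in 1x against control passed under all 28 alternatives (-1.33 to -0.96, adjusted p 6.3e-05 to 0.0062). Against 0.5x it passed under 26, and not within scan day 1 (-0.61, adjusted p = 0.376) or in the deposited matrix (-0.65, adjusted p = 0.300). The calls of slc30a5 and slc39a1 in 1x against control were lost under 15 and 13 of the 28, and that of slc39a1 against 0.5x under 19. No result that passed changed sign.

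Of the 9 genes, 3 passed in 1x against control, and 1 passed within scan day 2 and 1 without control replicates 1 and 2 (an alternative chosen after seeing the data); leaving out 1 array gave 1 to 3. Over all 28 alternatives 1 to 4 passed. Under quantile normalization slc39a7 passed in limma (0.27, adjusted p = 0.0290) beside mt2, slc30a5 and slc39a1. In 0.5x against control 0 passed, 1 within scan day 2 (slc39a13), and 0 to 1 on leaving out 1 array (slc30a1a without control replicate 4, 0.34, adjusted p = 0.0496). In 1x against 0.5x 2 passed, 1 with slide as a block, 1 with the array median, 1 without the filter on dim probes, 1 with the replicate block, 1 within scan day 2, and 0 by limma within scan day 1 (1 unadjusted) and in the matrix (3 unadjusted); leaving out 1 array gave 1 to 4.

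Over all probes, 11147 passed in 1x against control, with 18065 within day 1, 1574 within day 2, 4276 without control replicates 1 and 2, and 5939 to 12996 on leaving out 1 array (5939 without control replicate 1, 7293 without control replicate 2, 6916 without 1x replicate 3). For 0.5x against control, 3590 passed, with 606 without those controls, 2034 under normexp, 1122 with only these groups, 11654 and 835 within days 1 and 2, and 1111 to 9607 on leaving out 1 array. For 1x against 0.5x, 1581 passed, with 3237 without those controls, 3242 with only these groups, 727 with slide as a block, 1030 within day 2, 0 within day 1 (3200 unadjusted), 0 in the matrix (4063 unadjusted), and 709 to 4626 on leaving out 1 array. With the replicate block 12855, 3991 and 1826 probes passed. The causes were not tested. Of the probes that passed in 1x against control 34.4% were higher, 19.6% under normexp, 45.2% under quantile normalization and 44.4% with the array median. For 0.5x against control the share was 38.2%, with 54.8% under quantile normalization and 63.5% with the array median, and for 1x against 0.5x 42.6%, with 30.8% under normexp. Normexp moved the median of all probes in 1x against control from -0.09 to -0.20.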
